A study of Mus musculus with 5 samples.

Results

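The genes described here are those by which liver makes fatty acids and builds them into triglyceride. They were chosen by name, as a list of 38 genes ordered by pathway step, by a rule that uses no measured value, though the list was drawn up with earlier results of these data known. Of the 38, 36 could be read on the arrays, among 18820 genes in all. Livers came from adult C57Bl/6 mice given intraperitoneal injections 3 times a week for 6 weeks. One group (2 arrays) received M279, an antibody against CSF1R, the receptor that macrophages need for the growth factor CSF1. The other group (3 arrays) received rat IgG as a control, and the labels give 300 µg as the amount injected. RNA of whole liver was measured on 1 array per sample, as an intensity for each of 35556 probe sets, and all values below are log2 of that intensity. The labels do not say which animals the samples came from, so a p-value here speaks only of the spread among these 5 samples, which may be technical.

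In lipogenesis, citrate that has left the mitochondria is cleaved to acetyl-CoA, acetyl-CoA carboxylase turns it into malonyl-CoA, and fatty acid synthase joins these units into palmitate. Elongases and desaturases then lengthen the chain and add double bonds, acyl-CoA synthetases activate it, and a series of acyltransferases and a phosphatase place it on glycerol to give triglyceride. In liver the pathway is switched on by feeding, insulin and sugar, through the transcription factors SREBP1 and ChREBP. Because the samples are bulk tissue, fewer cells of a type and less RNA per cell cannot be told apart.

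Most regulators and synthesis enzymes, and some genes of later steps, had lower values in anti-CSF1R liver. SREBP1's own gene Srebf1, the citrate, acetate and malonyl-CoA enzymes Acly, Acss2, Acaca and Acacb, fatty acid synthase (Fasn) and the first acyltransferase of triglyceride synthesis (Gpam) each had both anti-CSF1R values below all control values. Their differences between group means ran from -0.89 to -0.47 on the log2 scale. For the main liver desaturase (Scd1), the 6 elongases and the last acyltransferases (Dgat1 and Dgat2) the group means differed by at most 0.31. There were exceptions in both directions. Mlxipl (-0.12), Me1 (-0.23) and Pklr (-0.30) of the early steps overlapped with the controls. Of the later steps, Scd2 (-0.55), Elovl7 (-0.22), Acsl4 (-0.62), Acsl5 (-0.55), Lpin1 (-0.49), Lpin3 (-0.13) and Pnpla3 (-1.18) also had both anti-CSF1R values below all controls. Differences between steps were not tested. Adjusted over all 35556 probe sets in limma, none of the 36 genes passed a threshold of 0.05, and the adjusted p ran from 0.187 to 0.961 (limma, two-sided). The share of all probe sets called was likewise 0% in each direction. At an unadjusted limma p under 0.05, 13 of the 36 genes were lower and 0 higher in anti-CSF1R liver, where 8.4% of all genes were lower and 9.91% higher. Both anti-CSF1R arrays lay below all controls for 16 of the 36, where the share over all genes was 19.5%, and above all controls for 3, where it was 25.1%. The median difference, anti-CSF1R minus control, was -0.19 over the 36 genes and 0.04 over all genes. Both the count of 13 and the median rest in part on 1 array. Without anti-CSF1R replicate 2 the median of the 36 was -0.044. Among the 13 genes, the differences of Acacb, Acss2, Acsl4 and Acsl5 were then -0.27, -0.32, -0.24 and -0.26.

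**Figure D1:**
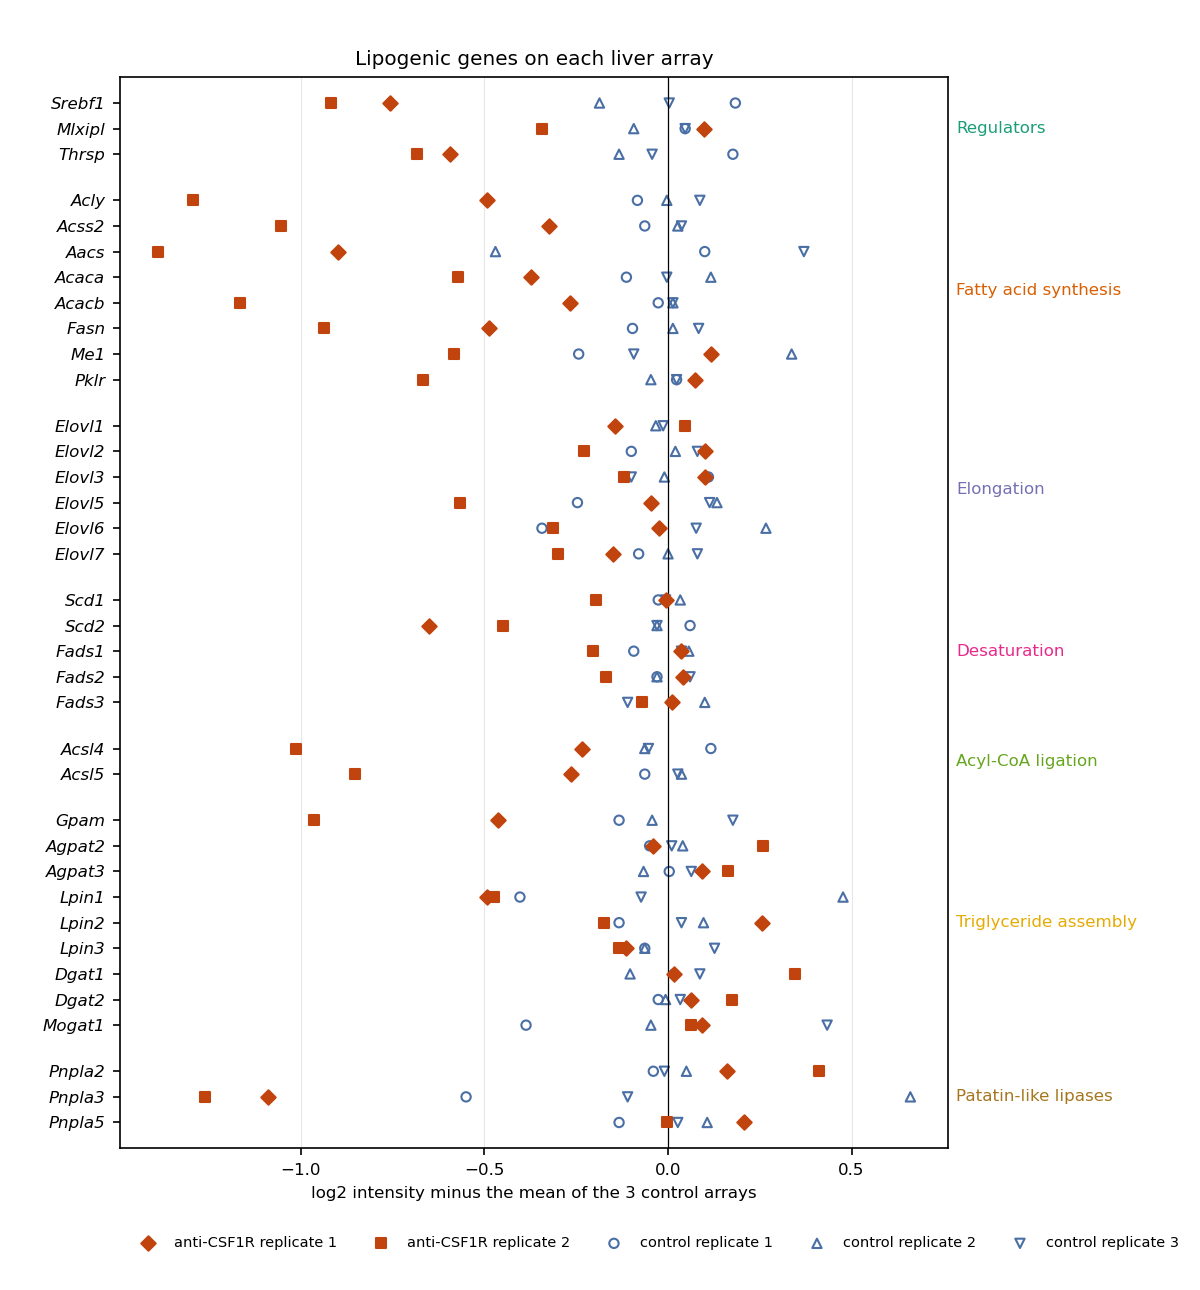
Log2 intensity of each of the 36 genes on each array, minus the mean of the 3 control arrays (horizontal axis). Filled marks are the 2 anti-CSF1R arrays and open marks the 3 control arrays, with genes in rows by pathway step. For Srebf1, Thrsp, Acly, Fasn and Gpam both filled marks lie left of every open mark, while for Scd1, Fads2 and Lpin2 they are mixed.

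The genes with lower values were also read for shared letters near their start sites. Promoter windows of RefSeq (GRCm38.p6), running from 250 bases before to 50 bases after a start site, were found for 32 of the 38 genes, 44 windows in all. The 4 shown belong to genes of different steps, each of which had both anti-CSF1R values below all controls and each of which holds the letters CCAAT, the box bound by the factor NF-Y, or their reverse complement ATTGG. They are given 5′ to 3′ on the gene's own strand, with these letters in capitals.
Fasn promoter, chr11:120824498-120824797, minus strand: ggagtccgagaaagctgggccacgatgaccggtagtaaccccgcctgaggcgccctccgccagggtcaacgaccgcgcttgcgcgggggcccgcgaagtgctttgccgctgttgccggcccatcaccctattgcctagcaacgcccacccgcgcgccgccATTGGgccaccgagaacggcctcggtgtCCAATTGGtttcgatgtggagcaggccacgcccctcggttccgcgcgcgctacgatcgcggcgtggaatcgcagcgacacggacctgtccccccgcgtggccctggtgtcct
Thrsp promoter, chr7:97417501-97417800, minus strand: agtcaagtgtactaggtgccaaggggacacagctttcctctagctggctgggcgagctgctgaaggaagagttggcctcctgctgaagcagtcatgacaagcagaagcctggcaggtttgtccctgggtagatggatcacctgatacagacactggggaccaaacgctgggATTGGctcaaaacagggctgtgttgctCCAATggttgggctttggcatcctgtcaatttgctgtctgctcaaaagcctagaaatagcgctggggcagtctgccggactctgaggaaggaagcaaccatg
Gpam promoter, chr19:55127189-55127488, minus strand: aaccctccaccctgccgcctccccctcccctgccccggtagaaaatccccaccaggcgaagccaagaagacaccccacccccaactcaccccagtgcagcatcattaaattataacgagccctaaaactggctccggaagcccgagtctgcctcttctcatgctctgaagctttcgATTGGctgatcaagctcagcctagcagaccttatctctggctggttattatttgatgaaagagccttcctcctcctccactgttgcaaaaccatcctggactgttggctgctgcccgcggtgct
Pnpla3 promoter, chr15:84167566-84167865, plus strand: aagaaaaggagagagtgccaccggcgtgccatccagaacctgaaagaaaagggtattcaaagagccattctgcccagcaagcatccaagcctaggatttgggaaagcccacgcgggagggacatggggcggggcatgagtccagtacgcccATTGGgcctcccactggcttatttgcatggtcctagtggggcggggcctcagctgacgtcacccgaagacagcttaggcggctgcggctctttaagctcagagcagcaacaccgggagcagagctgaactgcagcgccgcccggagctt
In the Fasn window the box occurs 3 times, 90, 62 and 59 bases before the start site, and the last 2 matches overlap. Thrsp has it 79 and 52 bases before the start site, Gpam 74 and Pnpla3 99 bases before it. Gpam has another window, chr19:55099428-55099727, which holds no NF-Y box and is not shown. A box was found in 47.7% of the windows of the 38 genes (21 of 44), and in 37.4% of all 32851 windows. The Sp1 box GGGCGG was in 52.3% of the genes' windows and in 35.7% of all. The E-box CACGTG was in 11.4% and 7.15%, and the sterol response element searched as TCACNCCAC in 4.55% (2 of 44) and 1.24%. Those 2 windows belong to Acsl1, which could not be read on the arrays, and to Mlxipl, whose groups overlapped. All 4 motifs were searched on both strands. Of the 15 genes with a window and with both anti-CSF1R arrays below all controls, 9 held an NF-Y box in some window (60.0%), a share no higher than the 62.5% (20 of 32) of all list genes with a window, and above the 41.1% of all genes. None of the 15 held the sterol response element, which only 1.44% of all genes hold. These matches describe letters in short windows, and the arrays do not tell which start site was used.

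Among the regulators, Srebf1 and Thrsp had lower values and Mlxipl did not stand apart. Srebf1 read 8.99 and 8.83 in anti-CSF1R livers, against 9.93, 9.56 and 9.75 in control livers. The groups were separated by more than either group's own range, and the difference was -0.83 ± 0.14 (SE, 2 and 3 arrays; limma adjusted p = 0.187), or -43.8% in intensity. Only 0.43% of all genes had a lower difference. Thrsp, which encodes the thyroid hormone-responsive nuclear protein Spot 14, read 9.91 and 9.82 in anti-CSF1R livers and 10.68, 10.37 and 10.46 in control livers. Its difference was -0.64 ± 0.13 (SE, limma adjusted p = 0.189), and again both groups were tight and apart. Mlxipl, the gene of the carbohydrate-responsive factor ChREBP, read 10.94 and 10.50 in anti-CSF1R livers and 10.89, 10.75 and 10.89 in control livers. Here one anti-CSF1R array lay above all controls and the other below them, and the difference of -0.12 had a 95% interval of -0.50 to 0.26.

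In fatty acid synthesis, 6 of 8 enzymes had both anti-CSF1R values below all controls, and the median difference of the 8 was -0.70. Over all genes that share was 19.5%, and over genes with a mean log2 level of 8 or more it was 25.1%. Fasn, the multifunctional synthase, read 11.28 and 10.83 in anti-CSF1R livers, against 11.67, 11.78 and 11.85 in control livers. The highest anti-CSF1R value was below the lowest control, and the difference was -0.71 ± 0.16 (SE, limma adjusted p = 0.192). Acaca, the cytosolic carboxylase that supplies Fasn with malonyl-CoA, read 9.30 and 9.10 in anti-CSF1R livers and 9.56, 9.79 and 9.67 in control livers. Its difference was -0.47 ± 0.13 (SE), and a second probe set of the gene gave -0.54 ± 0.14. Acacb, the carboxylase at the mitochondria whose malonyl-CoA restrains fatty acid entry for oxidation, read 9.44 and 8.54 in anti-CSF1R livers, against 9.68, 9.72 and 9.72 in control livers. The controls were almost identical while the anti-CSF1R arrays were far from each other, so the difference of -0.72 ± 0.26 (SE) became -0.27 without anti-CSF1R replicate 2 and -1.17 without anti-CSF1R replicate 1.

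The 3 enzymes that supply acetyl units in the cytosol all had both anti-CSF1R values below the controls, with unequal values on the 2 anti-CSF1R arrays. Acly, ATP citrate lyase, read 9.91 and 9.11 in anti-CSF1R livers and 10.32, 10.40 and 10.49 in control livers. Its difference was -0.89 ± 0.24 (SE, limma adjusted p = 0.198), or -0.49 without anti-CSF1R replicate 2. Acss2, which makes acetyl-CoA from acetate, read 11.26 and 10.53 in anti-CSF1R livers, against 11.52, 11.61 and 11.62 in control livers. Both anti-CSF1R values were lower, one of them by much more, and the difference of -0.69 ± 0.22 (SE) was -0.32 without anti-CSF1R replicate 2 and -1.06 without replicate 1. Aacs, acetoacetyl-CoA synthetase, which returns ketone bodies to lipid synthesis, read 8.50 and 8.01 in anti-CSF1R livers and 9.50, 8.93 and 9.77 in control livers. Its difference of -1.14 ± 0.28 (SE, limma adjusted p = 0.192), or -54.7% in intensity, was the lowest among the synthesis enzymes, and 0.122% of all genes had a lower one.

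The remaining 2 genes of this step overlapped between groups. Me1, malic enzyme, a source of the NADPH that synthesis consumes, read 11.16 and 10.46 in anti-CSF1R livers and 10.80, 11.38 and 10.95 in control livers, and the 95% interval of its difference was -0.87 to 0.41. Pklr, liver pyruvate kinase and a known target of ChREBP, read 11.40 and 10.66 in anti-CSF1R livers, against 11.35, 11.28 and 11.35 in control livers. For both genes anti-CSF1R replicate 1 was at the level of the controls and replicate 2 below all of them. The difference of Pklr was -0.30 (95% interval -0.83 to 0.23).

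**Figure D2:**
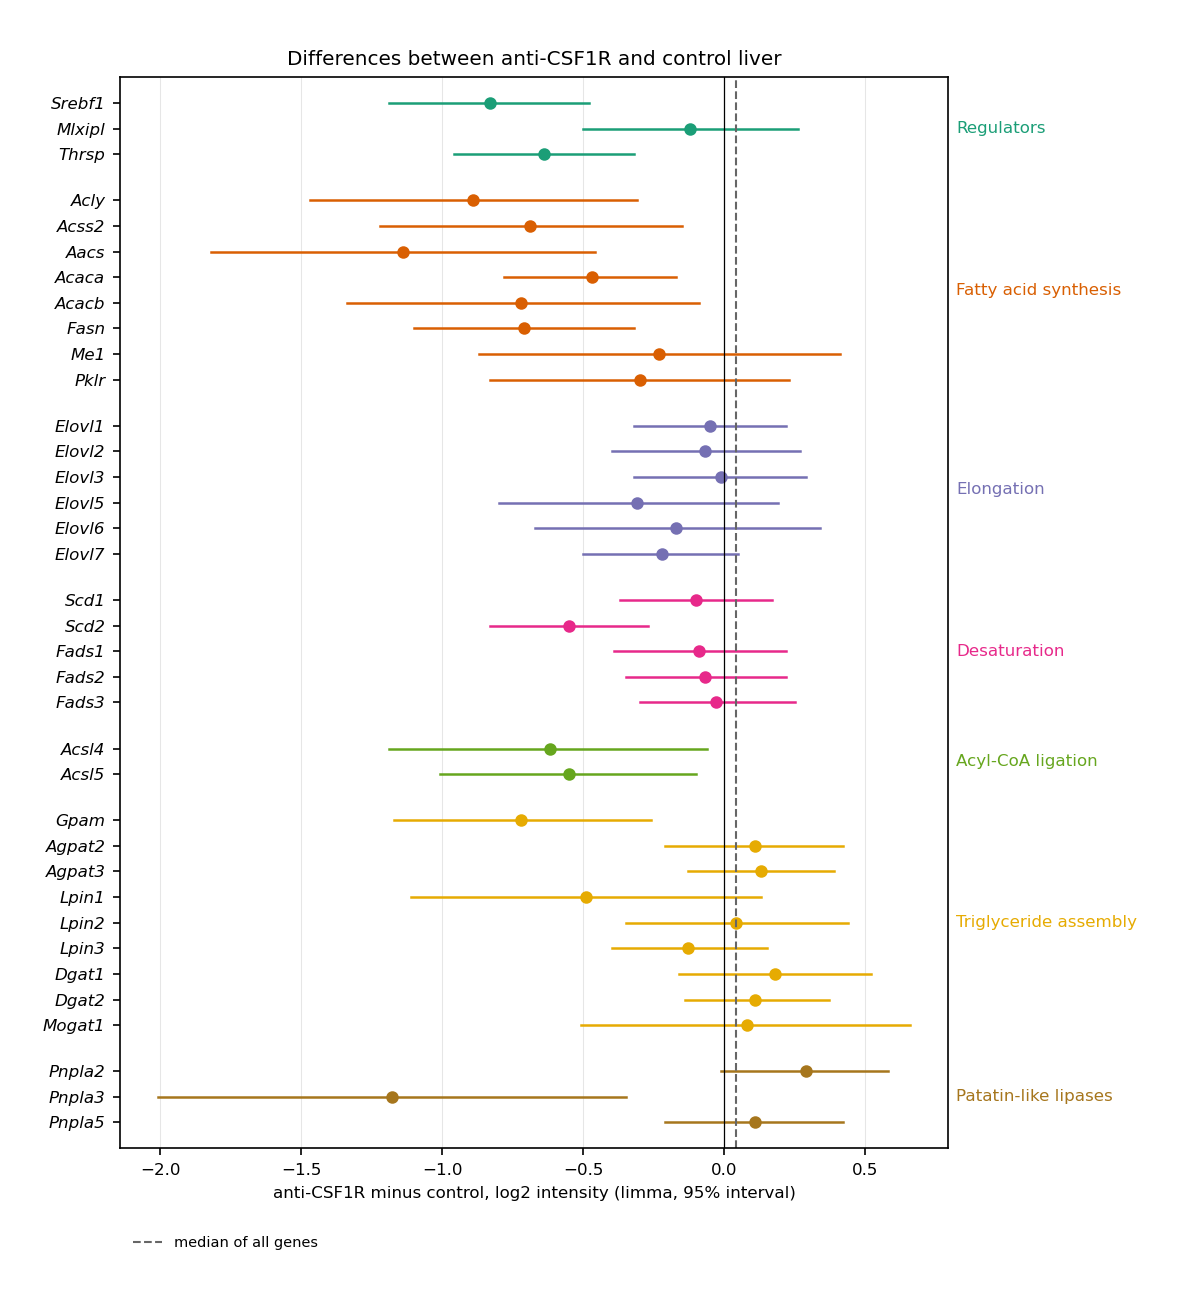
Difference between anti-CSF1R and control liver for each gene (points, log2 intensity, horizontal axis) with its 95% interval from limma (lines, not adjusted for the number of genes). The dashed line is the median of all genes, 0.04, and the intervals of 13 genes, among them Srebf1, Fasn, Acly, Scd2, Gpam and Pnpla3, end below 0.

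Chain elongation and desaturation differed little, with 1 exception. All 11 genes had differences at or below -0.01, with a median of -0.09, but for 9 of them the groups overlapped. Groups also overlapped for 10419 of all 18820 genes. Scd1, the main stearoyl-CoA desaturase of liver, read 13.11 and 12.92 in anti-CSF1R livers and 13.09, 13.15 and 13.11 in control livers. One anti-CSF1R value lay among the controls, and the difference was -0.10 (95% interval -0.37 to 0.17). These values are near the highest of any gene, 13.55, and whether so bright a signal still follows the RNA amount was not tested. Scd2, the related desaturase known mainly from brain and from liver around birth, read 6.55 and 6.75 in anti-CSF1R livers, against 7.26, 7.17 and 7.17 in control livers. Its groups were wide apart for their spread, with a difference of -0.55 ± 0.12 (SE, limma adjusted p = 0.189), and it was the only one of these 11 genes with an unadjusted limma p under 0.05. Fads1 (-0.09, 95% interval -0.39 to 0.22) and Fads2 (-0.07, -0.35 to 0.22), the desaturases of polyunsaturated fatty acids, and their relative Fads3 (-0.03, -0.30 to 0.25) overlapped with the controls.

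Of the elongases, Elovl6, which lengthens palmitate to stearate, read 10.75 and 10.46 in anti-CSF1R livers and 10.43, 11.04 and 10.85 in control livers. Both anti-CSF1R values lay within the control range, and the 95% interval of its difference was -0.67 to 0.34. Elovl5, which acts on polyunsaturated chains, read 12.05 and 11.53 in anti-CSF1R livers and 11.85, 12.23 and 12.21 in control livers, a difference of -0.31 (95% interval -0.80 to 0.19), or -0.05 without anti-CSF1R replicate 2. Elovl2, also an elongase of polyunsaturated chains, was at -0.07 (-0.40 to 0.27), and Elovl1 (-0.05, -0.32 to 0.22) and Elovl3 (-0.01, -0.32 to 0.29), elongases of saturated and monounsaturated chains, were closest to the controls. Elovl7, another elongase, was the one whose arrays were apart, at 4.73 and 4.58 in anti-CSF1R livers and 4.80, 4.88 and 4.96 in control livers. Its difference was -0.22 ± 0.11 (SE, limma adjusted p = 0.328).

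Both measured long-chain acyl-CoA synthetases had lower values. Acsl5, a synthetase of the endoplasmic reticulum and mitochondria, read 10.62 and 10.03 in anti-CSF1R livers and 10.82, 10.92 and 10.91 in control livers, a difference of -0.55 ± 0.19 (SE, limma adjusted p = 0.229). Acsl4, which prefers arachidonate, read 9.09 and 8.31 in anti-CSF1R livers and 9.44, 9.26 and 9.27 in control livers, a difference of -0.62 ± 0.23 (SE, limma adjusted p = 0.248). In both genes anti-CSF1R replicate 2 was the lower array: without it the differences were -0.26 for Acsl5 and -0.24 for Acsl4, and without replicate 1 they were -0.85 and -1.01. Acsl1 and Acsl3 were not analysed here: no probe set was listed under Acsl1, and that of Acsl3 is shared with another gene.

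Of 9 triglyceride assembly genes, 3 lay below all controls and 2 above on both anti-CSF1R arrays, where 19.5% and 25.1% of all genes did. Gpam, the mitochondrial acyltransferase that starts the pathway on glycerol phosphate, read 10.24 and 9.74 in anti-CSF1R livers, against 10.57, 10.66 and 10.88 in control livers. The groups did not overlap, and the difference was -0.72 ± 0.18 (SE, limma adjusted p = 0.194), or -0.46 without anti-CSF1R replicate 2. The related acyltransferases Gpat4 (0.10), Gpat3 (0.02) and Gpat2 (0.21), of the same step but outside the list, overlapped with the controls. Dgat2, one of the enzymes that add the last acyl chain, read 11.55 and 11.66 in anti-CSF1R livers and 11.46, 11.48 and 11.52 in control livers. Both anti-CSF1R values were slightly above all controls, and the difference between group means was 0.11 (95% interval -0.14 to 0.37). Dgat1, the other such enzyme, read 8.35 and 8.68 in anti-CSF1R livers and 8.35, 8.23 and 8.42 in control livers, overlapping, with an interval of -0.16 to 0.52. Agpat2 and Agpat3, which acylate lysophosphatidic acid, differed by 0.11 (-0.21 to 0.42) and 0.13 (-0.13 to 0.39), and for Agpat3 both anti-CSF1R arrays were above all controls. Gpam was the 1 gene of assembly with an unadjusted limma p under 0.05.

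The lipins, phosphatases that turn phosphatidate into diacylglycerol, gave no shared direction. Lpin1, also known as a coactivator induced by fasting, read 8.83 and 8.85 in anti-CSF1R livers and 8.92, 9.80 and 9.25 in control livers. Its anti-CSF1R values were nearly equal and just under the lowest control, and the difference of -0.49 ± 0.25 (SE, limma adjusted p = 0.335) was -0.25 without control replicate 2, the highest control. Lpin2 was at 0.04 (95% interval -0.35 to 0.44), with 1 anti-CSF1R array above all controls and 1 below them. Lpin3 was at -0.13 (-0.40 to 0.15), or -0.06 without control replicate 3. Mogat1, a monoacylglycerol acyltransferase, was at 0.08 (-0.51 to 0.66), and its control values, 3.22, 3.56 and 4.04, spanned both anti-CSF1R values of 3.70 and 3.67.

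The patatin-like family, which acts on stored triglyceride, held both the lowest and the highest difference of the 36 genes. Pnpla3, a lipid droplet protein whose gene is a known target of SREBP1, read 5.67 and 5.50 in anti-CSF1R livers, against 6.21, 7.42 and 6.65 in control livers. The controls varied widely but all lay above both anti-CSF1R arrays, and the difference was -1.18 ± 0.34 (SE, limma adjusted p = 0.208), or -0.85 without control replicate 2. With 16 added to each intensity as a pseudocount, the difference of Pnpla3 was -0.97. Pnpla2, adipose triglyceride lipase, which starts the breakdown of triglyceride, read 9.33 and 9.58 in anti-CSF1R livers and 9.13, 9.22 and 9.16 in control livers. Both anti-CSF1R values were above all controls, and the difference between group means was 0.29 ± 0.12 (SE, limma adjusted p = 0.277), or 0.16 without anti-CSF1R replicate 2. Pnpla5, a further member of the family, overlapped between groups at 0.11 (95% interval -0.21 to 0.42).

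**Figure D3:**
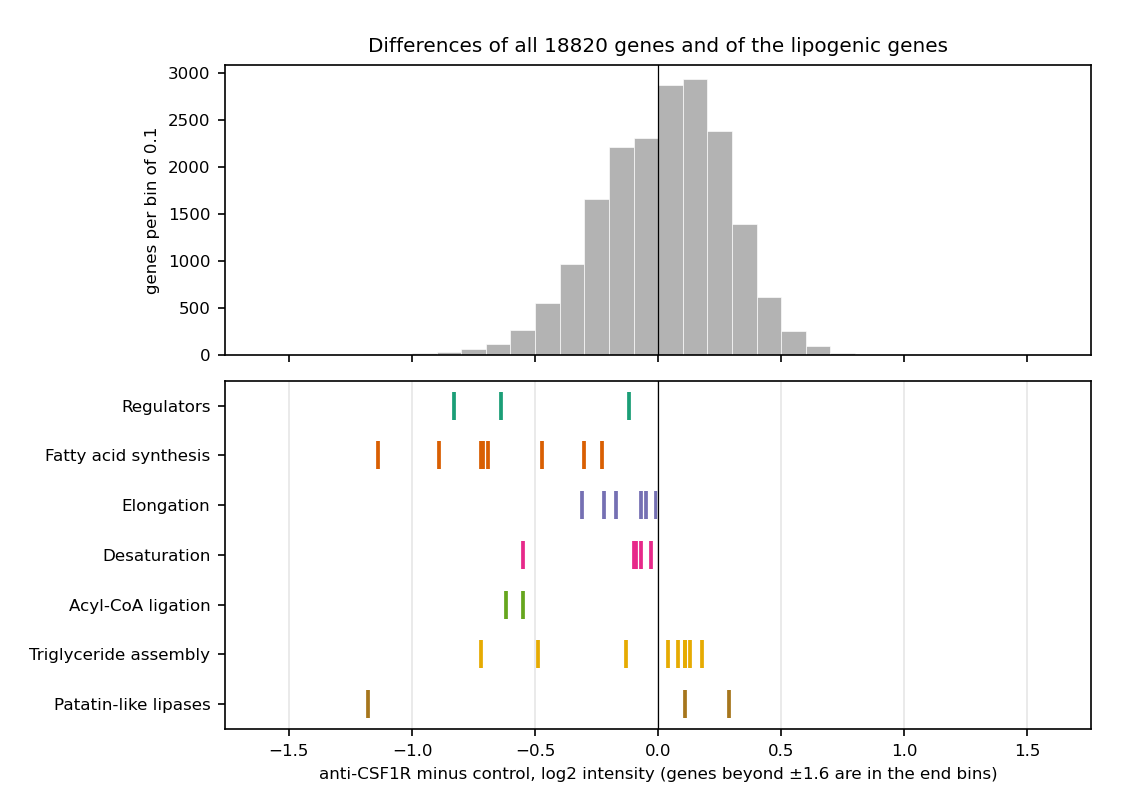
Upper panel, number of genes (vertical axis) by difference between anti-CSF1R and control liver (log2 intensity, horizontal axis), for 1 probe set of each of 18820 genes. Lower panel, the genes of each pathway step as vertical marks on the same axis: regulators, synthesis and acyl-CoA ligation lie mostly on the lower side, while assembly and the patatin-like family reach both sides.

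The anti-CSF1R arrays were unlike each other in how far the synthesis genes lay below the controls, while their medians over the regulators were close. Taking each gene's value minus its control mean, the median over the 8 synthesis genes was -0.35 on anti-CSF1R replicate 1 and -0.99 on replicate 2, while the controls lay between -0.07 and 0.03. Over the 3 regulators it was -0.59 and -0.69 on the anti-CSF1R arrays, against -0.13 to 0.17 on the controls. The elongases gave -0.03 and -0.26 on the anti-CSF1R arrays and -0.09 to 0.08 on the controls, and the desaturases 0.01 and -0.19, against -0.02 to 0.03. Triglyceride assembly stood at 0.02 and 0.06 on the anti-CSF1R arrays and -0.07 to 0.06 on the controls. The medians of regulators and synthesis were thus below those of all controls on both anti-CSF1R arrays, and the medians of elongation and desaturation on replicate 2. Single genes departed from these medians: on replicate 1 Mlxipl, Me1 and Pklr were above their control means, by 0.10, 0.12 and 0.07, while Scd2 and Elovl7 were below all controls on both arrays. Over all 36 genes the median was -0.04 on replicate 1 and -0.32 on replicate 2.

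**Figure D4:**
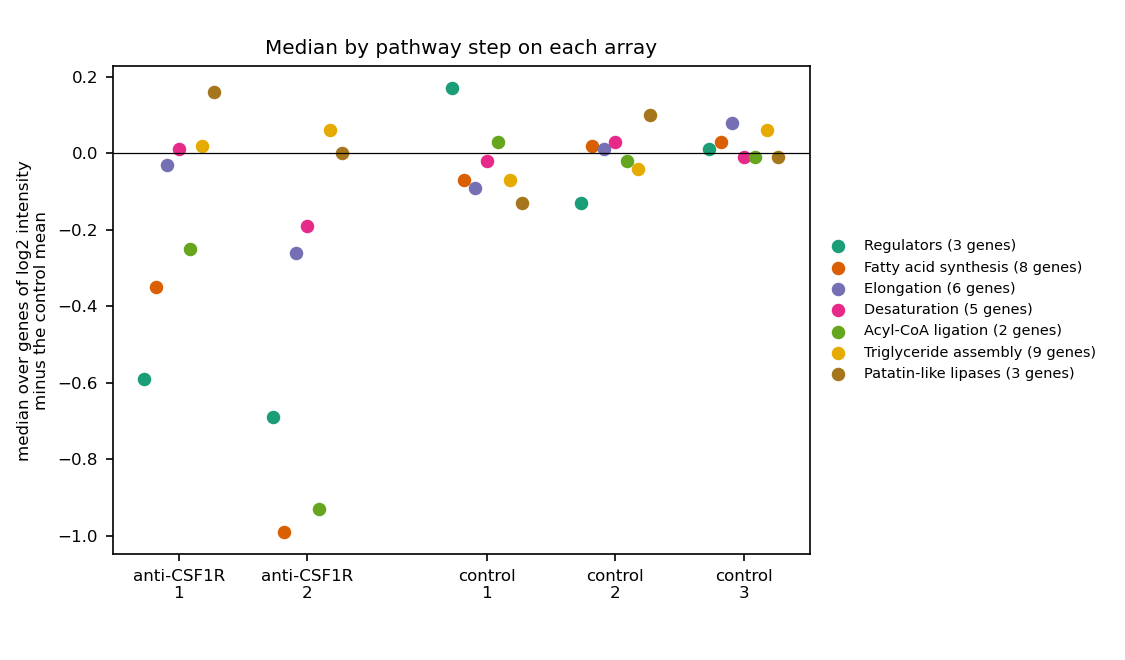
Median over the genes of each pathway step of log2 intensity minus the control mean (vertical axis), on the 2 anti-CSF1R arrays (left) and the 3 control arrays (right). Synthesis is at -0.35 and -0.99 on the anti-CSF1R arrays, with all controls between -0.07 and 0.03.

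Other genes around the pathway, taken from lists of named genes, were on balance closer to the controls. Of 74 measured genes in 5 lists, 4 were lower and 3 higher at an unadjusted limma p under 0.05, fewer for their number than the 8.4% and 9.91% of all genes. None of the 74 passed after adjustment over all probe sets, and their median difference was -0.03. The genes given here are therefore a description. Among genes that control SREBP and the liver X receptors, the SREBP retention protein Insig1 was at -0.42 ± 0.10 (SE) and Fbxw7, whose product marks SREBPs for degradation, at -0.30 (-0.08 without anti-CSF1R replicate 2), while the coactivator Ppargc1b was at 0.34 ± 0.13 and the repressor Nr0b2 at 0.52 ± 0.23 (0.31 without anti-CSF1R replicate 2, with overlapping groups). Among genes that supply carbon and NADPH, 11 of 12 had negative differences, with a median of -0.18, the lowest being Pgd of the pentose phosphate pathway (-0.59 ± 0.17) and then Aco1 (-0.44). These were -0.33 and -0.16 without anti-CSF1R replicate 2. The 1 positive value was that of the dicarboxylate carrier Slc25a10 (0.06, or 0.02 without control replicate 1). Further genes of chain modification had a median of 0.12. Hsd17b12 (-0.22) and Hacd3 (-0.19), which act after the elongases in each cycle, had both anti-CSF1R arrays below all controls, while malonyl-CoA decarboxylase (Mlycd) was at 0.28 (0.17 without control replicate 2). The elongase Elovl4 was at 0.41 ± 0.12, but it read only 3.52 and 3.46 in anti-CSF1R livers and 2.92 to 3.18 in control livers, where array medians were 5.02 to 5.08. Further acyltransferases and fatty acid carriers had a median of -0.04, and all 4 genes named by the rule depended on 1 array. Lclat1 was at -0.34 and the lipoprotein assembly gene Mttp, whose groups overlapped, at -0.44, or -0.18 and -0.06 without anti-CSF1R replicate 2. Acsl6 was at 0.27, or 0.13 without anti-CSF1R replicate 1, and Mogat2, again overlapping, at 0.16, or 0.07 without control replicate 3. Genes of lipid droplets and lipolysis had a median of 0.06, with lipoprotein lipase (Lpl) at -0.44 ± 0.12, the droplet coat gene Plin3 at -0.33 and the lipase inhibitor G0s2 at 0.57 ± 0.32 (0.27 without control replicate 2, with overlapping groups). The droplet protein Cidea was at 0.55 ± 0.11, but as dim as Elovl4, at 3.49 on both anti-CSF1R arrays and 2.85 to 3.01 in control livers.

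Beside these, cholesterol synthesis genes, the other target set of SREBP factors, had a median of -0.31 over 18 genes, and on them the anti-CSF1R arrays were alike, at -0.37 and -0.30. Sqle, squalene epoxidase, was at -0.88 ± 0.14 and lanosterol synthase (Lss) at -0.74 ± 0.11, while Tm7sf2 was at 0.11 and Ebp at 0.04, both overlapping with the controls and at -0.02 and -0.05 without anti-CSF1R replicate 2. Fatty acid oxidation genes had a median of 0.07 over 20 genes, with the isomerases of unsaturated chains Eci2 at 0.60 ± 0.14 and Eci1 at 0.24 (0.15 without anti-CSF1R replicate 2). Ehhadh and Hadha overlapped with the controls at -0.32 and -0.18, and without anti-CSF1R replicate 2 their differences turned to 0.05 and 0.03. The difference between these lists and the synthesis genes was not tested. Genes that respond to fasting and insulin had a median of -0.22 over 11 genes, at 0.03 on anti-CSF1R replicate 1 and -0.40 on replicate 2. None of the 11 had an unadjusted p under 0.05 in limma, and none passed adjusted over all probe sets. Among them were Ppargc1a at -0.38 ± 0.16, Tat at -0.29 (-0.12 without anti-CSF1R replicate 2), the gluconeogenic enzyme Pck1 at 0.37 (0.15 without anti-CSF1R replicate 1) and Klf15 at 0.21, the last 2 with overlapping groups.

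Markers of cell types were read on the same arrays. Hepatocyte markers differed by -0.20 to 0.11 over 9 genes, with albumin (Alb) at 0.00 ± 0.10 (SE), and their summed intensity was 64294 to 65364 in anti-CSF1R livers and 63411 to 65118 in control livers. Of 12 macrophage and Kupffer cell markers, 10 had negative differences, and the list ran from -0.80 to 1.34. Csf1r was at -0.56 ± 0.12, and Clec4f, whose groups overlapped, at -0.25 ± 0.14, or -0.10 without anti-CSF1R replicate 1. The 2 positive ones, named after their values were seen, were Cd5l at 0.03 and the scavenger receptor Marco. Marco was at 1.34 ± 0.17, with both anti-CSF1R arrays above all controls. Its limma adjusted p was 0.175 over all probe sets, above the threshold, and 0.0296 when limma was fitted on 1 probe set per gene. Their summed intensity was 3539 to 4770 in anti-CSF1R livers and 4515 to 5237 in control livers, and their median deviation from the control mean was -0.55 on anti-CSF1R replicate 1 and -0.01 on replicate 2. That order is the reverse of the one in fatty acid synthesis, and the part of these cells in the result was not tested. Markers of adipocytes, cells also rich in lipogenic enzymes, gave 7 of 8 positive differences, where 10590 of all 18820 genes had one. Adipoq was at 0.35 ± 0.14 and Lep at 0.38 ± 0.13. Both were dim: on the anti-CSF1R arrays Adipoq read 4.14 and 4.13 and Lep 3.95 and 4.04, under array medians of 5.02 to 5.08. The summed intensity of the 8 was 539 to 591 in anti-CSF1R livers and 502 to 662 in control livers. Markers of other cells went both ways within most lists. The 6 bile duct markers ran from -0.51 (Sox9, below all controls) to 0.20 (Krt19, at 0.63 and -0.23 from the control mean on the 2 anti-CSF1R arrays), with a median of -0.03. The 8 stellate cell markers ran from -0.28 (Pdgfrb) to 0.36 (Lrat). The 8 markers of sinusoidal endothelium ran from -0.33 to 0.31 (Clec4g), with a median of -0.12 and Stab2 at -0.15. The 5 pancreas markers ran from 0.06 (Prss2) to 0.35. Sox9, Pdgfrb and Clec4g were named after their values were seen. No marker of these lists was listed at 0, and no detection call is given. Whether the dimmest were above background is therefore not known. The same holds for Elovl7, Lpin3, Mogat1, Pnpla5, Elovl4, Cidea, Acsl6, Mogat2, Gpat2 and Gpat3. It also holds for Pnpla3 on the anti-CSF1R arrays, at 5.67 and 5.50.

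The 5 arrays were alike in median intensity, from 32.5 to 33.9. Bright genes had lower differences than genes at large: over the 4120 genes with a mean log2 level of 8 or more the median difference was -0.04, and both anti-CSF1R arrays lay below all controls for 25.1% and above all controls for 12.5%. Of the lipogenic genes 29 had such a level, with 12 below and 3 above all controls and a median of -0.23, and at an unadjusted limma p under 0.05 there were 11 lower and 0 higher, where the share over the bright genes was 7.48% and 2.06%. When limma was fitted on only 1 probe set per gene, 0 of the 36 passed (0.0478% of genes were called lower and 0.0266% higher), and the smallest adjusted p was 0.0613, for Srebf1. With 10 ways to divide 5 arrays into 2 and 3, the smallest p of an exact permutation test is 0.1, and that test was not used.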

How the data were processed

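RNA of 5 liver samples was amplified, labelled with biotin and hybridised to 1 array each, as the labels' protocols describe. The authors' deposited table holds 1 intensity per probe set and array on a linear scale. Per the submitters' processing notes the software was Affymetrix Expression Console 1.1; its settings were not given in the sources used here. A method that draws arrays together can hide shared shifts.

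The intensities were put on the log2 scale as deposited, unfiltered and without a pseudocount. Of 35556 probe sets, 21218 had 1 gene symbol in GEO's annotation of the platform, possibly out of date, 1881 had several and 12457 were not listed. Each gene was read from the 1-symbol probe set of highest mean. Groups were compared with limma 3.58.1 (R 4.3.3, lmFit and eBayes, two-sided; residual degrees of freedom 3, prior 3.03). P-values were adjusted by Benjamini-Hochberg across every probe set, and 0.05 was the threshold. The number of arrays limits precision: the median SE of a difference was 0.138. On 10 simulated comparisons of 35556 probe sets with 200 changed, 67.7% of changes of 1 and 97.3% of changes of 2 on the log2 scale were recovered, with 116 and 153 false calls in all. Smaller changes, the size of most differences here, were not simulated. The simulated noise was normal, independent between probe sets and arrays, and took limma's moderated spread as the true one. Real arrays may differ in this, so these shares do not tell how many real changes of such sizes would be called. On the real arrays 0 of 35556 probe sets passed, with a smallest limma adjusted p of 0.175.

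The genes and lists were chosen with earlier results of these data known. All genes of the list are named. Of the other pathway lists, the rule takes up to 2 lower and 2 higher genes of smallest p, and defining cell type markers. Csf1r was added as the antibody's target, and Gpat2, Gpat3 and Gpat4 as enzymes of Gpam's step. Promoter windows were scanned for 4 motifs. Alternatives were quantile normalization, median centring, cyclic loess, a pseudocount of 16, a filter at the 25th percentile, 1 probe set per gene, the mean over a gene's probe sets, a trend and robust variance model, array weights, a replicate block and leaving out each array. Plots used Python 3.11.15 and matplotlib 3.10.9.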

Additional observations from a re-analysis of the deposited data

How the results depend on the processing

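No gene of the list passed an adjusted p of 0.05 in limma under any of the 10 alternatives on all arrays or with 1 array left out, and each of the 16 genes with both anti-CSF1R arrays below all controls kept the sign of its difference in all of them. Of 360 gene values under the alternatives on all arrays, 350 kept their sign. The rest were small: Fads3 was at 0.13 with quantile normalization, 0.0121 with array medians centred and 0.11 with cyclic loess, Elovl3 at 0.025 with array medians centred and 0.00485 with array weights, Mogat1 at -0.0634, -0.0845 and -0.00102 with quantile normalization, cyclic loess and array weights, and Pnpla5 at -0.0194 and -0.0432 with quantile normalization and cyclic loess, which were also the medians of its family there. One gene, Pnpla2, was higher at an unadjusted limma p under 0.05 with quantile normalization, array medians centred, cyclic loess and the pseudocount of 16. The same held with 1 probe set per gene, the mean over probe sets and the trend and robust variance model (1 against 0). The median over the 36 genes was -0.266 with cyclic loess. The same scalings moved the median of all probe sets between -0.007 and 0.089, from 0.051.

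With 1 array left out the count of genes lower at an unadjusted p under 0.05 ran from 6 (without anti-CSF1R replicate 2) to 15 (without anti-CSF1R replicate 1), that of genes higher from 0 to 1, the median from -0.323 to -0.044 and the count of genes with every anti-CSF1R array below all controls from 16 to 26, where fewer arrays make separation easier. A lone anti-CSF1R array was taken to have the controls' spread. Signs turned for 13 genes: Mlxipl (-0.34 to 0.1), Me1 (-0.58 to 0.12), Pklr (-0.67 to 0.0696), Elovl1 (-0.14 to 0.0435), Elovl2 (-0.23 to 0.0967), Elovl3 (-0.12 to 0.0962), Fads1 (-0.21 to 0.0343), Fads2 (-0.17 to 0.0366), Fads3 (-0.0786 to 0.0233), Agpat2 (-0.043 to 0.26), Lpin2 (-0.17 to 0.26), Mogat1 (-0.12 to 0.29) and Pnpla5 (-0.00271 to 0.21). The step medians turned for desaturation (-0.19 to 0.0146), assembly (-0.0212 to 0.11) and the patatin-like family (-0.00271 to 0.16). The cause was not tested. Same-numbered arrays of the 2 groups did not deviate together (r of 0.0268 and 0.0325). With 2 anti-CSF1R arrays, the deviations of 1 are the reverse of the other's, so these values cannot decide whether arrays were paired. With the replicate block 12 genes were lower at an unadjusted limma p under 0.05, and the median was -0.155. Whether dim genes were above background could not be read from these files.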
